A study of Mus musculus with 6 samples.

Results

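Prostaglandin synthesis and breakdown was examined through 10 genes in fetal liver of mouse embryos lacking Tmod3, the gene of tropomodulin 3, which blocks growth and shrinkage of actin filaments at their slow-growing end. The 10 genes are Ptgs1, Ptgs2, Ptges, Ptges2, Ptges3, Ptgds, Ptger4, Slco2a1, Hpgd and Ptgr1. They were found by exact gene symbol in the annotation of the array, and a gene with several probe sets was represented by the one with the highest mean over all 6 arrays. This gave 9 measured genes of 19938 named genes in all, while Ptgs1 had no probe set of its own and was not analysed here. The samples were 3 livers of Tmod3-/- embryos and 3 livers of Tmod3+/+ embryos, all at E14.5 and all of strain C57BL/6J, each from a separate embryo and each on 1 Affymetrix MoGene 1.0 ST array. The labels describe the Tmod3-/- embryos as anemic with a small fetal liver and the Tmod3+/+ embryos as normal. The construction of the Tmod3 allele is not stated in the sources used here. The gene set was chosen by measured values of these same arrays, since it was proposed with the low Hpgd values of the knockout arrays already known. The Hpgd difference between genotypes is therefore given as a description and supports nothing further.

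Prostaglandins are short-lived lipid signals made from arachidonic acid. Phospholipases release the arachidonic acid from membranes, the cyclooxygenases Ptgs1 and Ptgs2 turn it into prostaglandin H2, and terminal synthases convert that into prostaglandin E2, prostaglandin D2 and related products, which act on receptors such as Ptger4. Signalling ends when the transporter Slco2a1 carries prostaglandin into cells, Hpgd oxidises its 15-hydroxyl group, and Ptgr1 or Ptgr2 reduces the 15-keto product. Prostaglandin E2 is known to act on blood-forming stem cells, and the fetal liver at this stage is the main organ of red cell formation.

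Hpgd and Ptgr1, the breakdown enzymes among the members, read lower in every knockout array than in any wild type array, as did 7.1% of all genes. Ptgs2, Ptgds and Ptger4 read higher in every knockout array, as did 6.14% of all genes. The synthases and the receptor lay near the floor of the array or differed little. The promoters of Hpgd and Ptgr1 are shown because these are the members with the widest differences. Each window holds 250 bases before and 50 bases after the annotated start, from RefSeq on build GRCm38.p6, written 5′ to 3′ along the gene's own strand. Hpgd lies on chromosome 8 (chr8:56294302-56294601, plus strand) and Ptgr1 on chromosome 4 (chr4:58987029-58987328, minus strand). Capitals mark matches to any of 7 short motifs, listed after the sequences.
Hpgd: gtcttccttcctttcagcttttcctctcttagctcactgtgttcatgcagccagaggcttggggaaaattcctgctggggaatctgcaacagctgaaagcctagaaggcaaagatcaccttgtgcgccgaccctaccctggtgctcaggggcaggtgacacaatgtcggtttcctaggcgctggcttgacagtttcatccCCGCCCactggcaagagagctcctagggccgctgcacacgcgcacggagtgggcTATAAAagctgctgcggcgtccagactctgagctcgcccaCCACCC
Ptgr1: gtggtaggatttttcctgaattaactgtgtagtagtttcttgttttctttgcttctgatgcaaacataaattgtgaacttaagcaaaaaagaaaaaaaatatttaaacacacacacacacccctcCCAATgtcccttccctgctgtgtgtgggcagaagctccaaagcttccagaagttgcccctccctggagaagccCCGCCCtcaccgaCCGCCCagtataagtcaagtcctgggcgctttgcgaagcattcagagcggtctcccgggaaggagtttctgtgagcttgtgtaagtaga
The motifs were searched on both strands, were chosen with the values known, and each is given with its share among 27025 promoters of the same length. TATAAA, the TATA box, was in 14.2% of all promoters. It was in 2 of the 10 member promoters, those of Hpgd and Slco2a1, and in the Hpgd window it began at base 255, past the annotated start. GGGCGG, the GC box, was in 35.9% of all promoters and in 7 of the 10 member promoters, with 1 match for Hpgd and 2 for Ptgr1. CCAAT was in 37.9% of all promoters and in 2 member promoters, those of Ptgr1 and Ptger4. CCACCC, a core bound by Kruppel-like factors, was in 30.9% of all promoters and in 7 of the 10 member promoters, Hpgd among them and Ptgr1 not. AGATAA, a core bound by GATA-family factors, was in 11.4% of all promoters and in 0 of the 10 member windows. ACGTG, the core of the hypoxia element, was in 19.7% of all promoters and in 3 member windows, those of Ptgs2, Ptges2 and Slco2a1. TGACNNNGC, the core of the antioxidant element, was in 12.5% of all promoters and in the Ptges3 window alone among members. These motifs do not overlap one another in either window shown. A match is a description of letters and not a binding site. The windows also differed in base composition, with 58.0% G and C and 12 CpG in Hpgd, 47.0% and 7 CpG in Ptgr1, and 73.7% and 46 CpG in Ptges3. The median over all promoters was 52.7% and 7 CpG. G and C made up 50.7% in Ptgs1, 57.7% in Ptgds, 58.7% in Ptges2, 59.3% in Ptgs2, 60.0% in Ptges, 64.0% in Slco2a1 and 67.0% in Ptger4. Most member windows were thus richer in G and C than the median, and the motif shares over all promoters were not matched for this.

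Values are those of the deposited table, read as log2. Array medians over all probe sets lay between 1.36 and 1.43, and a gene near them is near the floor of the measurement. Tmod3 itself read at most 2.36 in the knockout arrays and at least 4.49 in the wild type arrays, so the arrays separate as labelled. As a check of the tissue, 11 of 11 measured erythroid markers and 10 of 11 hepatoblast or hepatocyte markers lay above the array median on all 6 arrays. Bright genes had a lower mean in the knockout group in general. The median difference, knockout minus wild type, was -0.25 over the 1562 genes with a mean level of 4 or more. It was -0.16 over 3094 genes from 2 to 4, and 0.03 over 15282 genes below 2. In order of replicate number, the 90th percentile over probe sets was 3.67, 3.82 and 3.68 in knockout and 3.68, 4.07 and 4.13 in wild type arrays. Wild type replicate 1 lay within the knockout range there, and only wild type replicates 2 and 3 stood apart. Whether genotype or single arrays brought this about was not tested. Correlations over all probe sets were 0.980 to 0.981 between knockout arrays and 0.978 to 0.990 between wild type arrays, while knockout replicate 1 and wild type replicate 1 reached 0.983. In whole liver RNA, fewer cells of a type and less RNA per cell cannot be told apart.

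**Figure D1:**
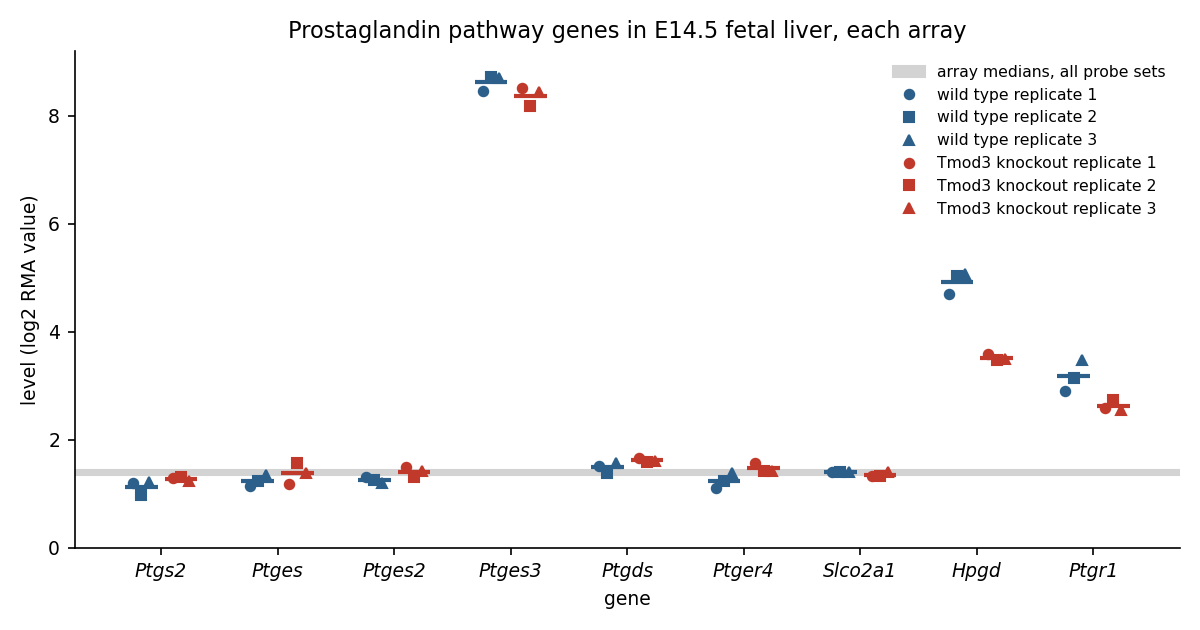
Level of the 9 measured genes (log2 RMA value) in each of the 6 arrays; points are arrays, short lines are group means, and the grey band spans the array medians of 1.36 to 1.43. Hpgd and Ptgr1 have all knockout points below all wild type points, and 6 genes lie at or near the band.

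Hpgd, 15-hydroxyprostaglandin dehydrogenase, carries out the first and inactivating step of prostaglandin breakdown. In order of replicate number, its level was 3.58, 3.48 and 3.49 in the knockout arrays and 4.69, 5.02 and 5.06 in the wild type arrays. The same order holds for the other genes. The groups did not overlap, the knockout arrays lay close together, and wild type replicate 1 was the lowest of its group. The knockout mean was 3.52 ± 0.06 and the wild type mean 4.93 ± 0.21 (SD, n = 3 each), a 2.65-fold lower level with a log2 difference of -1.41 and a standard error of 0.13. All knockout arrays stayed well above their medians, so the transcript was still measured there. By size of the difference Hpgd ranked 10 from the lowest among 19938 genes. In the fit over all genes it had an adjusted p of 0.0225 (limma, Benjamini-Hochberg), which is the value that led to the choice of this pathway. Of the 9 measured members 1 was called, against 0.015% of all genes (3 genes, all lower). Nothing is read from that count because the contrast chose the member. The 3 genes were Hpgd, Tmod3 itself and Car3 (limma adjusted p = 0.00315). At an unadjusted p under 0.05 there were 2 members, both lower (Hpgd and Ptgr1), against 9.03% of all genes, 6.44% lower and 2.59% higher. The call depended on the settings and on single arrays. Robust fitting with an intensity trend ended it (limma adjusted p = 0.0930), as did a block on replicate number (0.157). Leaving out wild type replicate 1 kept it (limma adjusted p = 0.0117). Leaving out any 1 of the 3 knockout arrays ended it (0.0911, 0.182 and 0.115 for replicates 1, 2 and 3), and so did leaving out wild type replicate 2 (0.255) or 3 (0.0856). The log2 difference ranged from -1.53 to -1.34 over these 6 fits. The deposited arrays did not share 1 distribution, with 90th percentiles from 3.67 to 4.13. After quantile normalization of the deposited values the log2 difference of Hpgd was -1.18. In that fit 6 genes were called over all genes, 3 higher and 3 lower.

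Ptgr1, prostaglandin reductase 1, reduces the 15-keto product that Hpgd makes and also reduces oxidised leukotriene B4 and other enones. It read 2.58, 2.73 and 2.56 in the knockout arrays and 2.90, 3.14 and 3.48 in the wild type arrays. The groups did not overlap, but the gap between the highest knockout and the lowest wild type array was small beside the spread of the wild type arrays. The means were 2.62 ± 0.09 and 3.17 ± 0.29 (SD, n = 3 each), and the log2 difference of -0.55 (95% interval -0.90 to -0.20) did not pass over all genes (limma adjusted p = 0.347, unadjusted p = 0.00685). This difference ranked 565 from the lowest of 19938. Genes of mean level 2 to 4 had a 10th percentile of -0.54, so Ptgr1 stood just past that edge. Without wild type replicate 3, its brightest array, the difference was -0.40. Quantile normalization of the deposited values gave -0.38, and the adjusted p over all alternatives ran from 0.0751 to 0.841.

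The other reductase of the 15-keto product, Ptgr2, stood outside the 10 genes and is given for comparison of the same step. It read 3.72, 3.88 and 3.16 in the knockout arrays and 3.83, 3.80 and 3.80 in the wild type arrays. Knockout replicate 2 was the highest array and knockout replicate 3 the lowest, so the groups overlapped. The log2 difference was -0.22 (SE 0.18, limma adjusted p = 0.783).

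**Figure D2:**
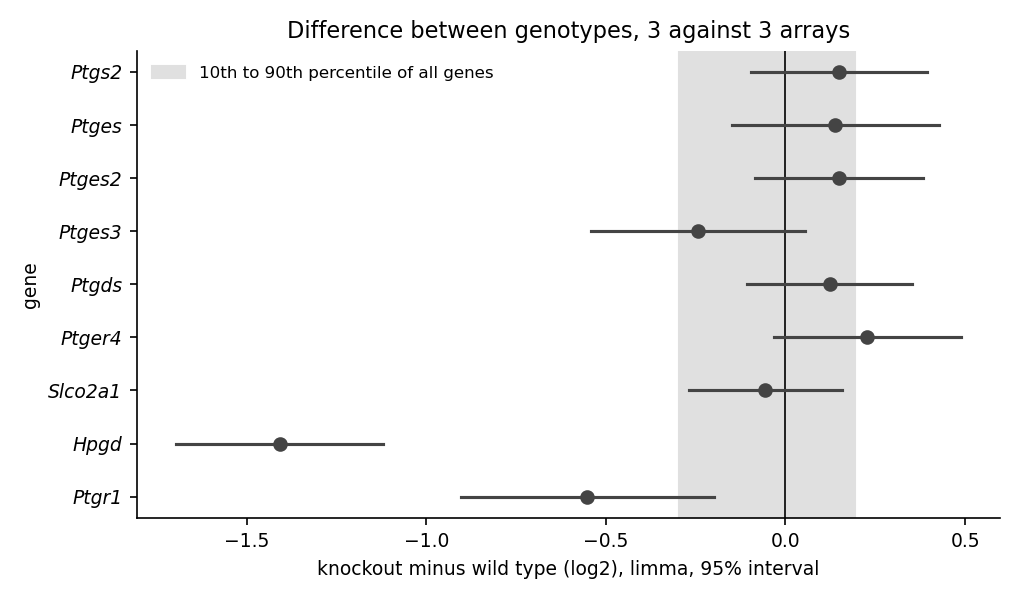
Knockout minus wild type difference (log2) of each measured gene with its 95% interval from limma, 3 against 3 arrays; the grey band spans the 10th to 90th percentile of all genes, -0.30 to 0.19. Hpgd (-1.41) and Ptgr1 (-0.55) lie to the left of the band, and the other intervals all include 0.

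Ptges3 was the synthesis gene measured far above the floor. It encodes p23, a co-chaperone of Hsp90 that is also described as the cytosolic prostaglandin E synthase. The probe set used read 8.51, 8.17 and 8.44 in the knockout arrays and 8.45, 8.71 and 8.69 in the wild type arrays. Knockout replicate 1 lay above wild type replicate 1, so the groups overlapped. The log2 difference was -0.24 (95% interval -0.54 to 0.06, limma adjusted p = 0.655), close to the median of -0.25 over all genes with a mean level of 4 or more. The 3 probe sets of this gene did not give 1 direction. The next one differed by -0.24 and the dimmest by 0.097, with 7.32, 6.93 and 7.62 in the knockout arrays and 6.99, 7.58 and 7.01 in the wild type arrays. The gene table also lists a pseudogene copy, Ptges3-ps, and which copy each probe set reads was not tested, so the Ptges3 value is uncertain.

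The 2 dedicated prostaglandin E synthases were at the floor. Ptges, the inducible microsomal synthase that works with Ptgs2, read 1.19, 1.56 and 1.38 in the knockout arrays and 1.14, 1.23 and 1.35 in the wild type arrays. One value of 6 was above the median of its own array, in knockout replicate 2. Ptges2, a second membrane-associated synthase, read 1.50, 1.31 and 1.42 against 1.32, 1.26 and 1.20, again with 1 array above its median. Their log2 differences were 0.14 (95% interval -0.15 to 0.43) and 0.15 (-0.08 to 0.38), with overlap between the groups for both.

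Ptgs2, the inducible cyclooxygenase, was below the array median on all 6 arrays. It read 1.29, 1.31 and 1.24 in the knockout arrays and 1.21, 0.98 and 1.21 in the wild type arrays. Each knockout array was the higher, by a small margin, and the log2 difference was 0.15 (95% interval -0.10 to 0.39, limma adjusted p = 0.757). Ptgds, the lipocalin-type prostaglandin D synthase, read 1.66, 1.58 and 1.61 in the knockout arrays and 1.52, 1.39 and 1.57 in the wild type arrays. All 6 values were above their array medians, by 0.15 on average, and the groups were separated by less than the knockout spread. The difference was 0.12 (95% interval -0.11 to 0.35, limma adjusted p = 0.783).

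Ptger4, the EP4 receptor, which raises cyclic AMP when prostaglandin E2 binds, read 1.57, 1.42 and 1.43 in the knockout arrays and 1.11, 1.24 and 1.39 in the wild type arrays. Each knockout array lay above each wild type array, though wild type replicate 3 came close to the knockout group. The difference of 0.23 (95% interval -0.03 to 0.49) did not pass (limma adjusted p = 0.619). Slco2a1, the prostaglandin uptake transporter, read 1.32, 1.32 and 1.41 against 1.41, 1.40 and 1.41, a difference of -0.06 (95% interval -0.27 to 0.16, limma adjusted p = 0.910). It lay at the array medians.

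Counted together, 5 of the 9 measured genes had groups that did not overlap, 2 lower (Hpgd and Ptgr1) and 3 higher (Ptgs2, Ptgds and Ptger4). Over all genes 13.2% did not overlap, 7.1% lower and 6.14% higher. The 3 higher genes lay near the array medians, where 60.1% of genes with a mean level under 2 read higher in knockout arrays. The median difference was 0.12 over the 9 genes and 0.13 over the 8 without Hpgd, against 0.01 over all genes. With knockout replicate 2 left out the median over the 9 was 0.046, and with wild type replicate 2 left out it was 0.071. It was -0.40 over the 4 members left by a filter on dim genes.

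**Figure D3:**
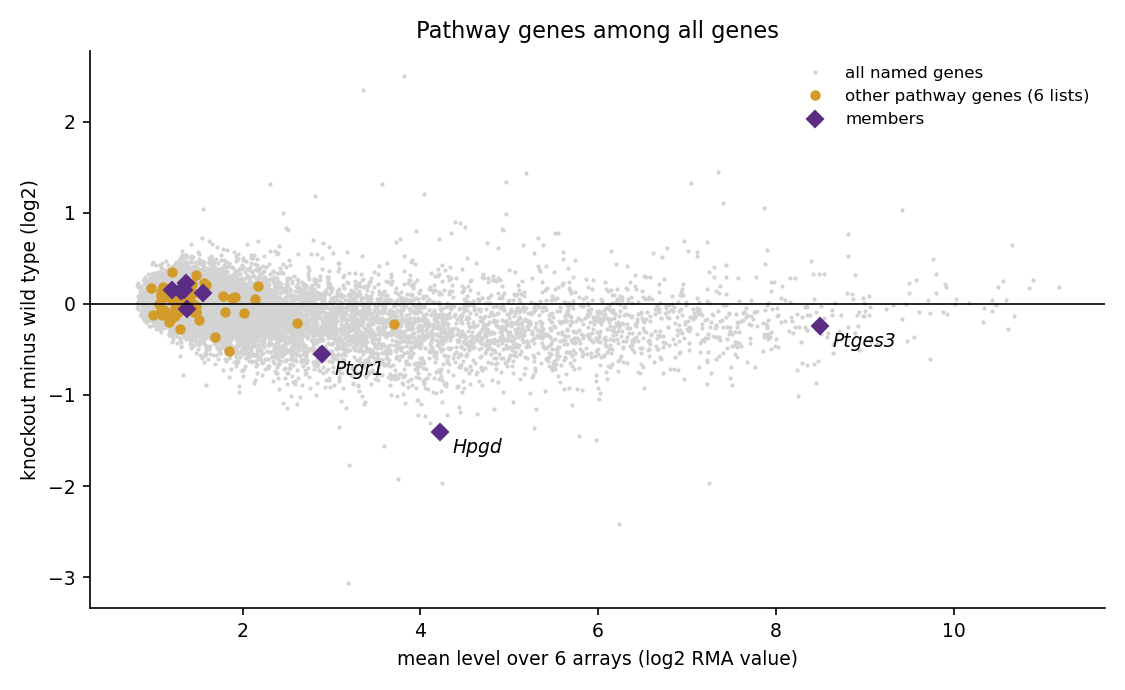
Difference between genotypes (knockout minus wild type, log2) against mean level over the 6 arrays (log2 RMA value) for all 19938 genes in grey, 69 other pathway genes in orange and the 9 members in purple. Hpgd lies apart from the pathway genes, most of which have a mean level under 2.

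Other genes of the pathway were read from 6 lists made by function, chosen with results of these data known. Of 74 listed genes 69 were measured, and 0 passed the limma threshold over all genes in either direction. At an unadjusted p under 0.05 there were 2, both lower, namely Pla2g12b and Alox12, where 9.03% of all genes reached that p. Only 5 of the 69 had a mean level of 2 or more, and the median difference over the lists was 0.01, as over all genes. Of the 69, 7 had no overlap in the lower direction and 3 in the higher, beside 7.1% and 6.14% of all genes.

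Among the 16 measured genes listed under arachidonic acid release, Pla2g12b, listed as a member of the secreted phospholipase A2 family, had the smallest p. Whether its product releases arachidonic acid was not tested. It read 1.37, 1.69 and 1.71 in the knockout arrays and 2.12, 1.91 and 2.28 in the wild type arrays. The groups did not overlap, and the difference was -0.51 (SE 0.14, limma adjusted p = 0.336). Pla2g4c and Pla2g3 came next with 0.35 and 0.20 and did not pass (adjusted p = 0.577 and 0.588). Pla2g4a, the cytosolic phospholipase A2 that supplies most substrate for cyclooxygenase, was chosen for naming after its values were seen. It had group means of 2.51 in knockout and 2.72 in wild type liver, a difference of -0.21 (adjusted p = 0.677).

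The other synthases and reductases held 10 measured genes, all with a mean level under 2. Hpgds, the haematopoietic prostaglandin D synthase, read 1.49, 1.27 and 1.50 in knockout and 1.72, 1.54 and 1.53 in wild type arrays, a difference of -0.18 (limma adjusted p = 0.729). Akr1c18, a reductase that makes prostaglandin F2 alpha and breaks down progesterone, had -0.17 and Cbr1, a carbonyl reductase, -0.27, both without passing (0.682 and 0.735). The list of other breakdown enzymes held 8 measured genes, Ptgr2 among them, and gave -0.13 for Cyp4a12a and 0.11 for Cyp4f18, cytochromes of omega hydroxylation (0.820 and 0.823).

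The list of other receptors held 11 measured genes, among them Ptgfrn, a regulator of a receptor, and the nuclear receptors Pparg and Ppard, which bind prostanoid products. All had a mean level under 2, and 9 of the 11 had a difference above 0, where 60.1% of genes so dim did. Ptgdr2, a prostaglandin D2 receptor, read 1.79, 1.67 and 1.57 in the knockout arrays and 1.41, 1.41 and 1.53 in the wild type arrays, a difference of 0.23 (limma adjusted p = 0.581). Ptger1 had 0.19 and the thromboxane receptor gene Tbxa2r 0.32, with overlapping groups (0.695 and 0.714). Among the 11 other transporters, Slco2b1 had 0.21, Abcc2 0.19 and Abcc1 -0.12, and none passed (adjusted p from 0.716 to 0.800 for these 3). In the lipoxygenase branch, which makes leukotrienes and hydroxy fatty acids, Alox12, the platelet-type lipoxygenase, read 1.43, 1.34 and 1.76 against 1.76, 1.87 and 1.98. Its groups barely separated, with a difference of -0.36 (limma adjusted p = 0.485). Ephx2 had -0.13 and Cysltr2 0.19 (0.779 and 0.783).

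Most markers of hepatocytes, erythroid cells and macrophages read lower in knockout liver, as did bright genes in general, of which 19.6% read higher in knockout at a mean level of 4 or more and 25.4% at 2 to 4. Over 11 hepatoblast or hepatocyte markers, led in level by Afp, Alb and Trf, the mean level per array ran from 5.41 to 6.31 in knockout and from 6.31 to 6.74 in wild type liver, with 9 of 11 lower. Of the named 3, Alb differed by -0.60, while Afp (0.045) and Trf (0.046) were the 2 markers that were not lower. Over 11 erythroid markers, led by Tfrc, Rhag and Slc4a1, it ran from 4.10 to 4.48 in knockout and from 4.46 to 4.92 in wild type liver, with 11 of 11 lower. Over 12 macrophage markers, led by Vcam1, Mrc1 and Spic, it ran from 1.65 to 2.14 and from 2.03 to 2.41, with 10 of 12 lower, and C1qa was below the array median on all arrays. No marker of these 3 lists passed over all genes with limma, and 6 hepatocyte, 6 erythroid and 2 macrophage markers had an unadjusted p under 0.05, all lower, where 6.44% of all genes did so in that direction. The part of these cell types in the Hpgd and Ptgr1 differences was not tested. Within the groups, knockout replicate 3 was the lowest array for all 3 lists, while its Hpgd level of 3.49 lay between those of the other knockout arrays and its Ptgr1 level of 2.56 was the lowest. Wild type replicate 1 was the lowest wild type array for the 3 lists and for both enzymes. The groups overlapped for all 3 lists. Knockout replicate 2 exceeded wild type replicate 1 in the hepatocyte (6.315 against 6.312), erythroid (4.48 against 4.46) and macrophage mean (2.04 against 2.03). No other arrays overlapped in the hepatocyte and erythroid means, while knockout replicate 1 (2.14) also did in the macrophage mean. Groups did not overlap, knockout lower, for 4 of 11 hepatocyte, 5 of 11 erythroid and 2 of 12 macrophage markers, beside 7.1% of all genes. The median difference was -0.64 over the hepatocyte, -0.38 over the erythroid and -0.24 over the macrophage markers.

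**Figure D4:**
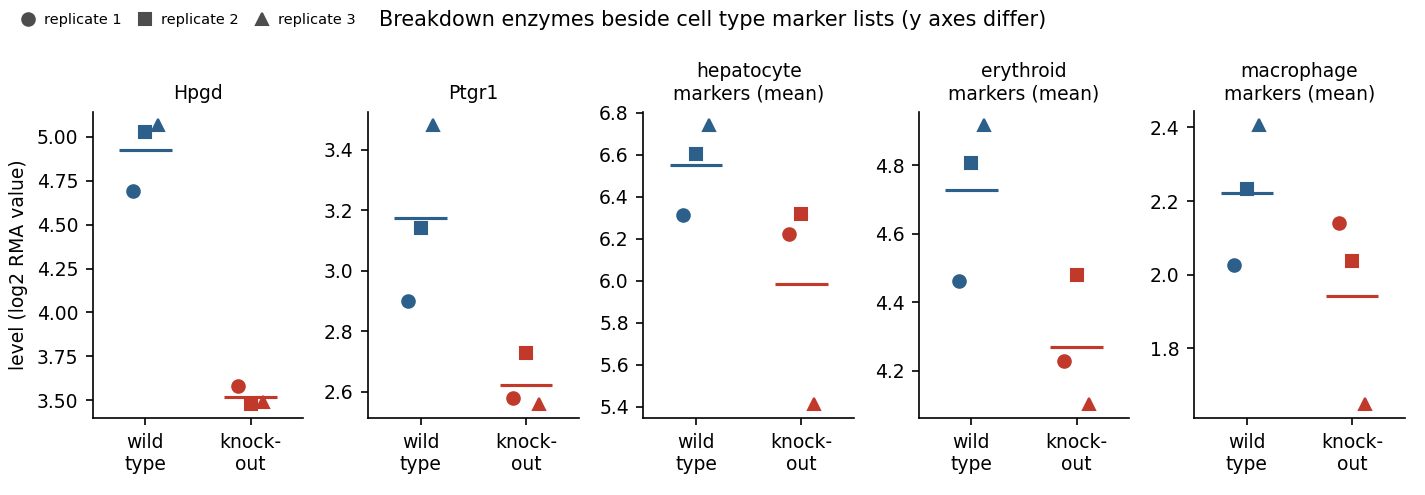
Level (log2 RMA value) of Hpgd and Ptgr1 and the mean level of the hepatocyte, erythroid and macrophage marker lists in each array; symbols give the replicate number, lines the group means, and each panel has its own y axis. Hpgd has a wide gap between the groups (3.58 at most against 4.69 at least). The groups overlap for the 3 lists, in the hepatocyte and erythroid means only through knockout replicate 2 and wild type replicate 1.

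The remaining lists moved less or the other way. The mean of 9 megakaryocyte markers, led by Ppbp, Pf4 and Clec1b, was 2.93 to 3.18 in knockout and 3.08 to 3.32 in wild type liver. For 12 granulocyte markers, led by S100a9, S100a8 and Mpo, it was 2.03 to 2.50 and 2.12 to 2.34. The 12 endothelial markers, led by Lyve1, Oit3 and Cdh5, read 1.81 to 1.90 and 1.68 to 1.77, and the 12 stellate or mesenchymal markers, led by Dcn, Lum and Reln, 1.93 to 2.16 and 1.85 to 2.03. The endothelial mean was higher in every knockout array than in any wild type array. Of its markers 10 of 12 were higher, beside 51.6% of all genes and 60.1% of genes with a mean level under 2. Cdh5 was lower (-0.11). For 3 of the 12 the groups did not overlap, knockout higher, beside 6.14% of all genes. Of the stellate or mesenchymal markers 9 of 12 were higher, beside the same 51.6% and 60.1%, and the list means overlapped between the groups. In the endothelial and the stellate or mesenchymal list alike, 3 of 12 markers had a mean level of 2 or more. Of 12 mast cell or basophil markers, led by Cpa3, Kit and Hdc, 8 had a mean below the average array median, with list means of 1.34 to 1.42 and 1.31 to 1.42. The 12 stem or progenitor markers, led by Myb, Hlf and Meis1, read 1.55 to 1.57 and 1.49 to 1.57. Across these 6 lists limma called 0 markers over all genes, and 5 of 69 reached an unadjusted p under 0.05, against 9.03% of all genes. These were 1 lower (Ppbp) and 4 higher (Oit3, Ramp2, Col1a1 and Rgs5), of which all but Ppbp and Oit3 were named after their values were seen.

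The genes most like Hpgd over the 6 arrays were ranked by the root mean square difference between profiles, each centred on its own mean. Xpo7, a nuclear export receptor, was closest at 0.148 log2 units, with 4.43, 4.24 and 4.10 in knockout and 5.12, 5.56 and 5.54 in wild type arrays. Akap7, an anchoring protein of protein kinase A, followed at 0.151, then the carbonic anhydrase gene Car3 at 0.213, Tex9 at 0.216 and Cyp2c23 at 0.223. Cyp2c23 encodes a cytochrome P450 that forms epoxides from arachidonic acid, and it read 2.08, 2.31 and 1.82 in knockout and 2.89, 3.39 and 3.22 in wild type arrays, a difference of -1.10 (limma adjusted p = 0.142). In all 5 the knockout arrays lay below the wild type arrays, which the choice by likeness to Hpgd brings with it. Among the members Ptgr1 came nearest, at 0.444 log2 units and position 336, and Ptges3 next at 0.589 and position 1911.

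**Figure D5:**
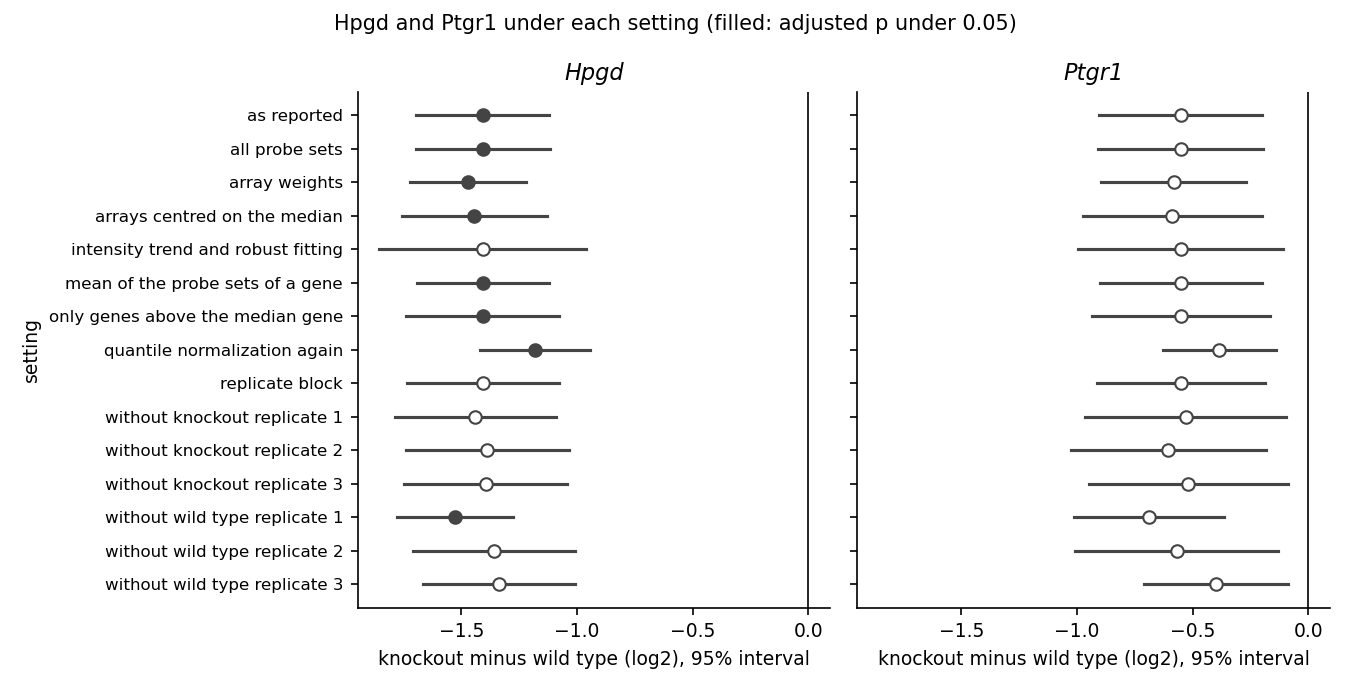
Knockout minus wild type difference (log2, with 95% interval) of Hpgd and Ptgr1 as reported and under 14 alternative settings, filled where the adjusted p over all features was under 0.05. Hpgd stays between -1.53 and -1.18 and Ptgr1 between -0.69 and -0.38, with the filled points limited to Hpgd.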

How the data were processed

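Total RNA of 6 fetal livers was extracted with Trizol and biotin-labelled, per the labels' protocols, and hybridised to MoGene 1.0 ST arrays. Each probe set has 1 deposited value on each array. Per the submitters' processing notes, the authors used RMA, whose version is not given. The deposited values were taken as log2, although the sources used here do not state the base, because their maxima exceed the scanner range if read as natural logs. The size of each fold rests on that reading. Arrays have no read depth, and their number limits the precision.

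Of 28853 probe sets, 21789 had 1 gene symbol in the platform annotation, 1621 several and 5443 none; the first were used, at the brightest probe set of each gene. Groups were compared with limma 3.58.1 (R 4.3.3, lmFit, eBayes, two-sided) over 19938 genes with Benjamini-Hochberg adjustment and a threshold of 0.05. The fit was run on simulated data with normal noise and shifts larger than the Hpgd difference. That check does not cover differences of the sizes reported for the members. Genes named were all members, Tmod3, up to 3 genes of each pathway list by smallest p, the 3 brightest of each marker list and the 5 profiles nearest to Hpgd. Pla2g4a, Ptgfrn, Pparg, Ppard, C1qa, Ramp2, Col1a1 and Rgs5 fall outside this rule and were named after their values were seen. Members and lists were chosen with earlier results of these data known. Promoters of all 10 members were matched by symbol in RefSeq tables. Alternatives were leaving out each array, a replicate block, a quantile normalization of the deposited values and median centring. The others were averaged probe sets, a filter on dim genes, trend with robust fitting, array weights and all probe sets.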

Additional observations from a re-analysis of the deposited data

How the results depend on the processing

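With 3 arrays a group, counts of calls moved with single arrays while the direction of all 9 members held under every alternative that could be fitted. For most alternatives this was fixed in advance for some or all members, so it says little about stability. The replicate block, trend with robust fitting, the filter on dim genes and all probe sets leave a member's difference unchanged. Averaging probe sets can change only Ptges3, the member with 3 probe sets. Leaving out or weighting arrays cannot change the sign for Hpgd, Ptgr1, Ptgs2, Ptgds and Ptger4, whose groups did not overlap. Median centring shifts every gene by the same amount. The dimmest Ptges3 probe set, with 0.097, went the other way and was not fitted alone. The filter on dim genes left 4 members, so the other 5 have no value there. Over all genes the count of limma calls was 3. It was 11 with array weights (10 lower, 1 higher), 6 after quantile normalization of the deposited values, and 0 to 95 when 1 array was left out. Wild type replicate 1 left out gave 95, knockout replicate 1 gave 1, and wild type replicate 2 gave 0 (1085 at an unadjusted p under 0.05). The Hpgd call, and with it the count of members called, fell to 0 with trend and robust fitting (adjusted p = 0.0930, difference -1.41) and was 0 to 1 when 1 array was left out (differences -1.53 to -1.34). With the replicate block 0 genes were called over all genes (1787 at an unadjusted p under 0.05) and 0 members, with an adjusted p of 0.157 and a difference of -1.41 for Hpgd. Same-numbered arrays deviated together with correlations of 0.107, 0.057 and -0.105, and knockout replicate 2 correlated best with wild type replicate 3 (0.186). With 3 arrays a group, these correlations cannot decide whether same-numbered arrays are paired. The median over the members was -0.40 among the 4 that passed the filter on dim genes, a set without most of the dim members, and 0.046 to 0.126 when 1 array was left out. The median over the other pathway genes was -0.028 after centring on the array median, which moves the median of all genes to -0.031. It was -0.0064 to 0.043 when 1 array was left out. The 6 members near the array medians are limited by signal over background, and their differences are small beside their intervals.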
